A study of Homo sapiens with 42 samples.

Results

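The libraries described here are the 3 ATAC-seq libraries of H1975 cells given AZD5153 alone and the 3 DMSO libraries of the same line, chosen by their labels, so 6 of the 42 libraries of the series. H1975 is a human non-small cell lung cancer line with mutant EGFR. The AZD5153 cells were kept without drug for 21 days and then given 150 nM AZD5153 for 3 days, and the DMSO cells were kept for the same 21 days and then given DMSO for 3 days. Levels in 2 further H1975 groups are set beside them, the drug-tolerant persister cells (DTP, 500 nM osimertinib for 24 days) and the combination (500 nM osimertinib for 21 days, then 150 nM AZD5153 for 3 days), each with 3 libraries, and the same 2 treatments in PC9, another EGFR-mutant lung line, serve for comparison. The assay is ATAC-seq by titles and design text. The extraction text in the labels is instead that of an H3K27ac ChIP, and all values are treated here as ATAC-seq. The labels call the 3 libraries of each group biological replicates, and nothing in them gives separate clones or passages.

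AZD5153 binds the bromodomains of BET proteins, which read acetylated histones at promoters and enhancers and recruit the elongation kinase P-TEFb. BET inhibition is known for its effect on genes with large enhancer clusters, MYC above all. In ATAC-seq a transposase cuts open chromatin, and the reads of a region rise both with its openness and with the number of copies of that DNA in the cells. The files hold no separate measure of DNA copies, so the 2 cannot be told apart here, and neither can fewer cells with an open region and a less open region per cell.

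The H1975 table held 496892 regions of equal width, with 6200672 to 9435270 counts per AZD5153 library and 7853163 to 9043320 per DMSO library. Levels are given as CPM, each library's counts scaled to a common total with TMM factors. DMSO replicates 1 and 2, and AZD5153 replicates 2 and 3, did not differ beyond the sampling noise (variance over counting noise 0.973 and 1.01, chi-square p = 1 and 0.0703), while the other pairs of the same groups did (1.02 to 1.16). The margin was small in AZD5153, where replicates 1 and 3 had 1.02. The near-identical pairs were also counted as 1 sample each, giving 2 samples against 2, and those counts stand beside the main ones. In the series 41 regions averaged at least 10 CPM in H1975 DMSO, with at least 8 times the DMSO level of every other line. Of these, 41 were at or above 10 CPM in each DMSO library and 26 to 27 in the AZD5153 libraries. Of 131 regions chosen alike for PC9, 0 were at or above 10 CPM in each H1975 DMSO library and 7 to 8 in the AZD5153 libraries. The choice used the DMSO libraries, so their levels follow from it, and a move of AZD5153 away from them was favoured. Of 5 epithelial markers (EPCAM, CDH1, KRT8, KRT18, KRT19), all had a tested promoter region. Of 9 markers of blood, endothelial, mesenchymal, muscle and liver cells, 4 did, and all 4 had lower levels under AZD5153.

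Whole stretches of chromosomes moved together under AZD5153. The median log2 change of all regions starting in a 10 Mb bin lay at least 0.3 from zero in 152 of 297 bins, 34 up and 118 down, and at least 1 from zero in 16 bins, 3 up and 13 down. After each library's median over a bin was taken, the AZD5153 and DMSO libraries did not overlap in 268 bins (90.2% of all bins), all 152 shifted bins among them. With counts summed over each bin, edgeR's quasi-likelihood test called 279 of 297 bins (93.9%) at a Benjamini-Hochberg adjusted p under 0.05, 33 higher and 246 lower. Scaled by library size alone, 88 bins were higher and 185 lower. With the near-identical libraries counted as 1 sample, 270 of 295 bins were called. The SD of the bin medians was 0.43 on the log2 scale. In no bin did the 3 DMSO libraries spread over more than 0.172 or the 3 AZD5153 libraries over more than 0.230. The same SD was 0.212 for DTP and 0.187 for the combination against the same DMSO libraries, with 29 and 31 bins past 0.3, and 0.0638 for AZD5153 in PC9, where 0 of 296 bins passed it.

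**Figure D1:**
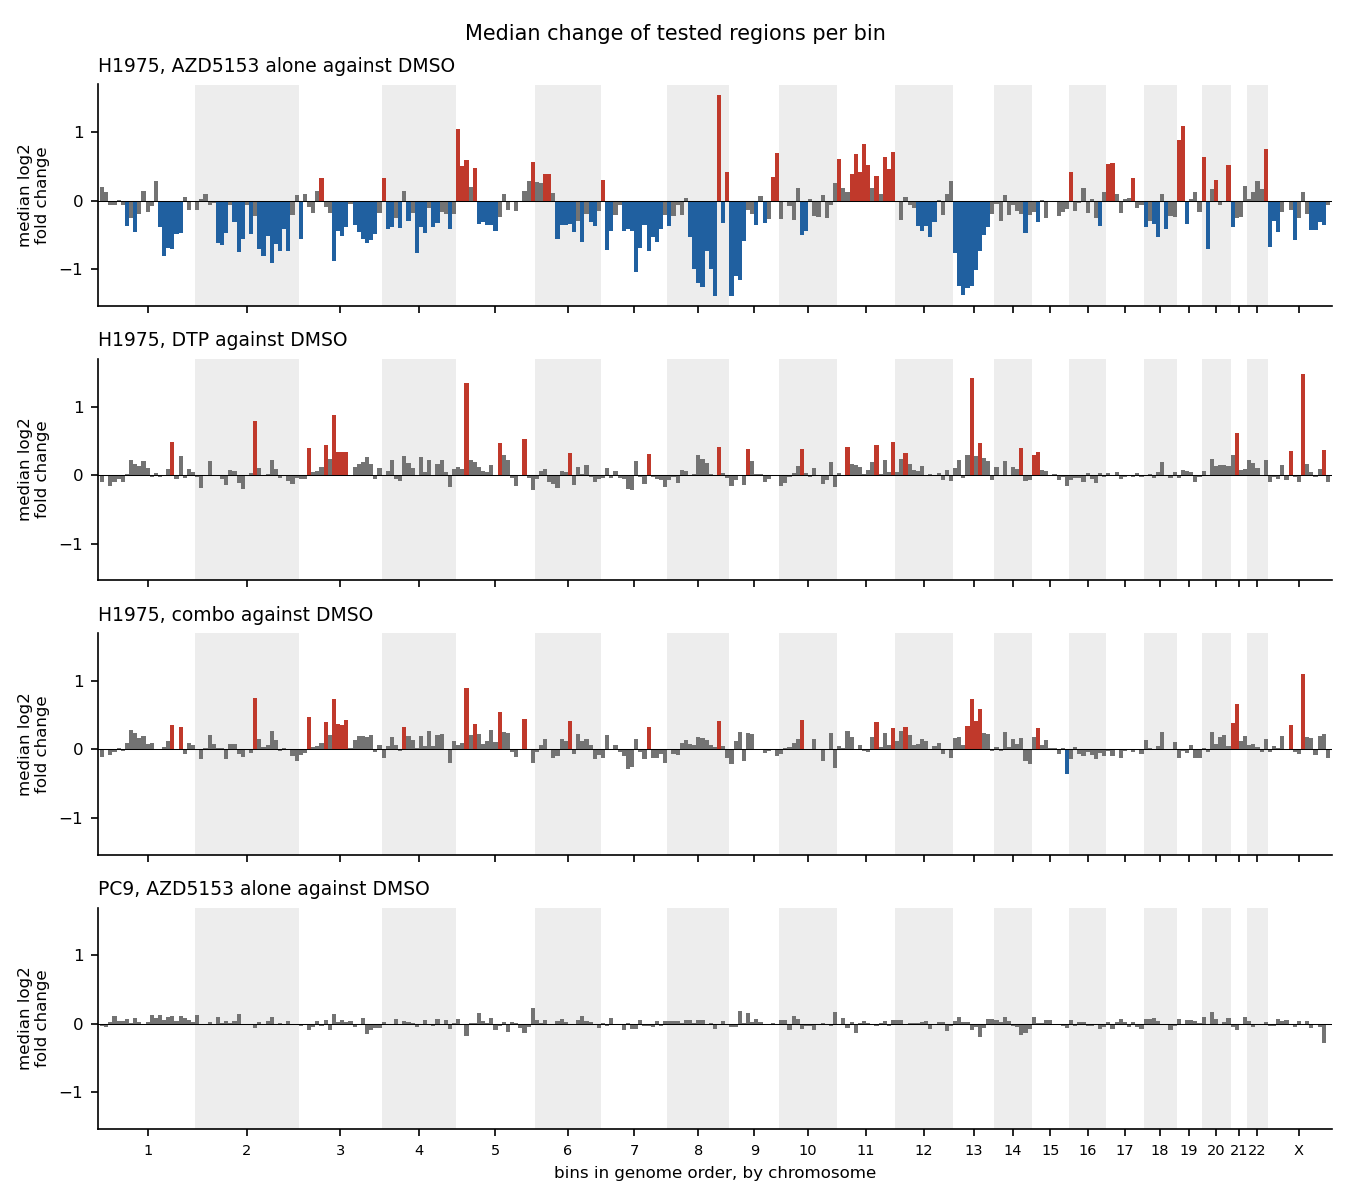
Median log2 fold change of tested regions per 10 Mb bin, 1 bar per bin in genome order, for AZD5153, DTP and the combination against DMSO in H1975 and AZD5153 against DMSO in PC9. Bars at least 0.3 above zero are red and at least 0.3 below zero blue. For AZD5153 alone, 152 of 297 bins lie that far from zero in H1975, and in PC9 0 of 296 do.

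The lowest bins were on chromosomes 8, 9 and 13. The first 10 Mb of chromosome 9 (329 regions) had a median log2 change of -1.39, with library medians of -1.18 to -1.14 in AZD5153 and -0.05 to 0.04 in DMSO. The bin at 110 to 120 Mb of chromosome 8 had -1.39 (335 regions), and the one at 80 to 90 Mb had -1.26 (439 regions). On chromosome 13 the bins at 40 to 50 and 50 to 60 Mb had -1.38 and -1.28. In each of these 5 bins every AZD5153 library lay below every DMSO library.

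The highest bin was also on chromosome 8, at 120 to 130 Mb, with a median log2 change of 1.55 over 1972 regions. Its AZD5153 library medians were 1.11, 1.34 and 1.24. On chromosome 19, the bins at 10 to 20 and 0 to 10 Mb had 1.10 (3150 regions) and 0.88 (3742 regions). The first 10 Mb of chromosome 5 had 1.05 and 60 to 70 Mb of chromosome 11 had 0.84. In these 5 bins every AZD5153 library lay above every DMSO library.

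By arm, with arms split at the longest gap without regions or RefSeq genes, 19p stood highest with a median log2 change of 0.92 over 7393 regions, of which 62.4% were called higher with the shifts kept in. The other arm of that chromosome, 19q, had -0.02. The arms 11q (0.64), 5p (0.62), 17p (0.55) and 11p (0.47) followed, while 5q had -0.06. At the low end were 9p (-0.90 over 1618 regions, 58.8% called lower) and 13q (-0.88 over 3058 regions, 54.6% called lower), and 9q had 0.25. Of all tested regions with shifts kept, 26.7% were called higher and 31.4% lower. The AZD5153 libraries had medians of -0.82 to -0.75 on 9p, -0.77 to -0.72 on 13q and 0.83 to 0.85 on 19p, and all DMSO libraries had medians within 0.02 of zero on these 3 arms. The arms 2q and 7q both had -0.46. Promoters stood above other annotated regions on these arms. The promoter and other annotated medians were -0.42 and -1.42 on 9p, -0.45 and -1.31 on 13q, 0.82 and 0.37 on 19p, and 0.92 and 0.30 on 5p.

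**Figure D2:**
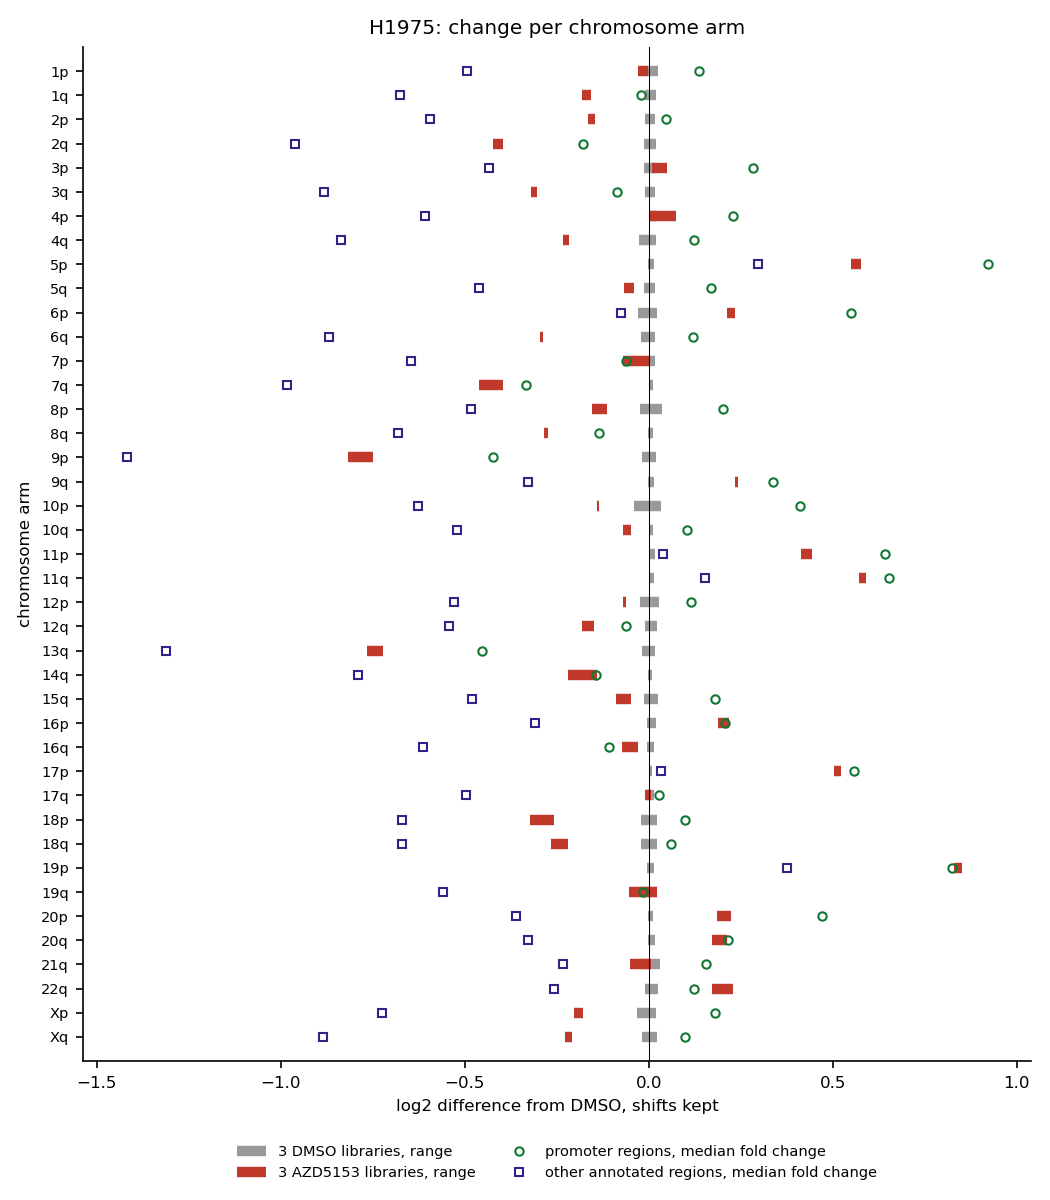
Bars give the range of the 3 library medians of AZD5153 (red) and DMSO (grey) per chromosome arm, as log2 difference from DMSO, and open symbols the median fold change of promoter and other annotated regions. By median fold change of all regions 19p lies highest at 0.92, and 9p and 13q lie lowest at -0.90 and -0.88.

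Neighbouring bins formed 19 runs of at least 3 bins shifted 0.3 or more the same way, 16 lower and 3 higher, covering 95 bins. The lower runs lay at 50 to 120 Mb of chromosome 8 (median -1.04, 3019 regions), 20 to 110 Mb of chromosome 13 (-0.98), 0 to 40 Mb of chromosome 9 (-0.90), 150 to 230, 50 to 80 and 90 to 120 Mb of chromosome 2 (-0.65, -0.56 and -0.53), 160 to 220 Mb of chromosome 1 (-0.54) and 50 to 150 Mb of chromosome 7 (-0.51). Further lower runs with medians of -0.50 to -0.38 lay on chromosomes 3, 4, 5, 6, 12 and X. The higher runs lay at 0 to 30 Mb of chromosome 5 (0.84) and at 30 to 80 and 110 to 140 Mb of chromosome 11 (0.71 and 0.58). In PC9 the medians over the same runs were -0.06 to 0.10. Promoter regions and other annotated regions each had the run's sign in 14 of the 19 runs.

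Across 284 bins with enough regions of both classes, the promoter and other medians had a correlation of 0.757, as a description over bins that share the same 6 libraries, and their medians over bins were 0.13 and -0.66. Both classes had the sign of the bin in 91 of 145 shifted bins. The correlation of a bin's shift with its percentage of promoters was 0.334. The regions too low to test, summed per bin, had log2 ratios that correlated at 0.906 with the bin medians, and the SD of those ratios was 0.372. Their level was higher, with a median over bins of 0.27 against -0.20 for the tested regions. Such ratios were above zero in some lower runs, as at 50 to 150 Mb of chromosome 7 (0.06), and below it in others, as at 0 to 40 Mb of chromosome 9 (-0.76).

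The level changed within short distances at some places. Comparing 5 windows of 1 Mb on each side, the median fell from 1.06 to -0.59 at 20 Mb of chromosome 19, from 0.53 to -0.69 at 18 Mb of chromosome 6 and from 0.49 to -0.70 at 44 Mb of chromosome 5. It rose from -1.31 to 0.07 at 126 Mb of chromosome 8 and from -1.35 to -0.18 at 216 Mb of chromosome 2. These places were chosen as the largest such steps and have no test. With medians of 5 windows the place of a step is only rough. On chromosome 8, windows of 100 kb were still low at 126.8 Mb (-1.26), and the rise came at 127 and 127.1 Mb (0.42 and 1.73).

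The sharpest of the raised stretches held MYC, the transcription factor gene, and the long noncoding gene PVT1 beside it. It was defined by its own change, as neighbouring 100 kb windows with at least 20 tested regions each and a median log2 change of at least 1, so its size is a description. With shifts kept, 26.7% of all tested regions were called higher and 31.4% lower. From 127.1 to 128.3 Mb of chromosome 8, 1191 of 1267 tested regions were called higher and 29 lower, and the median change was 4.13-fold. The summed level of these regions was 15250, 17040 and 15430 CPM in the AZD5153 libraries and 7643, 7449 and 7530 CPM in the DMSO libraries. No AZD5153 library came near the DMSO range. By this sum DTP (7623 to 8354 CPM) overlapped DMSO and the combination (8082 to 8957 CPM) lay above it, both far below AZD5153 alone. The sum gives more weight to strong regions than the median change does. All 12 windows of 100 kb had medians between 1.73 and 2.32. The median was 2.15 for 172 promoter regions and 2.02 for 523 other annotated regions. In the 1.5 Mb before the stretch the median was -1.41 over 120 regions, 84 of them lower, and in the 1.5 Mb after it -0.06 over 29 regions. The stretch was dense in regions, with 24 to 140 per window against a median of 4 elsewhere on the chromosome. Against the same DMSO libraries the median log2 change there was 0.56 in DTP and 0.57 in the combination. For AZD5153 in PC9 it was -0.06 over the 107 tested PC9 regions that start there, which were not matched to those of H1975. The genes annotated there also include CASC8, CASC11, CASC19, CASC21, CCAT1, CCAT2 and PCAT2, noncoding genes near MYC.

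**Figure D3:**
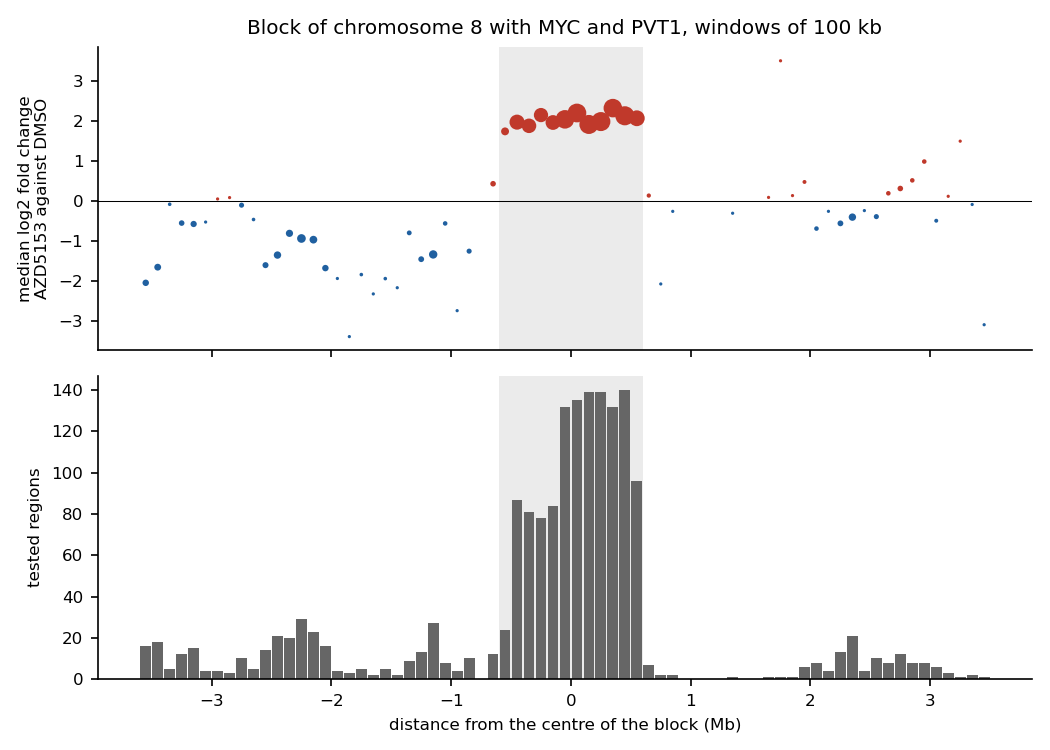
Upper panel, median log2 fold change of AZD5153 against DMSO per 100 kb window around the raised stretch of chromosome 8 that holds MYC and PVT1, by distance from its centre, with point size for the number of tested regions. The lower panel gives that number, and shading marks the stretch. The 12 windows of the stretch have medians of 1.73 to 2.32, and the 1.5 Mb before it a median of -1.41.

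The MYC promoter region itself had 246, 279 and 239 CPM in the AZD5153 libraries and 84.4, 79.6 and 86.2 CPM in the DMSO libraries, with no overlap. Its log2 change was 1.60 with shifts kept and 0.38 (SE 0.07, adjusted p = 1.46e-06, edgeR's quasi-likelihood test) once each library's median over its 10 Mb bin was removed. Those library medians, from log2 levels with a prior count of 2, lay below the bin's median fitted change of 1.55 in AZD5153. Part of the bin's shift therefore stayed in this value and in its call. Its bin reaches far beyond the raised stretch, and with a running median over the nearest tested regions in place of the bin the value turned to -0.39. The direction of MYC relative to its surroundings thus depends on how they are drawn. In PC9 the MYC promoter had a log2 change of 1.05 with bin medians removed, where the surrounding stretch had the median of -0.06 given above.

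By the same definition 11 other stretches were found, 10 higher and 1 lower. On chromosome 19 they included 10 to 11.1 Mb (median log2 change 1.39, 541 regions), which holds ICAM1, DNMT1 and KEAP1, and 12.9 to 13.3 Mb (1.45), which holds CALR and NFIX. On chromosome 11 they were 68.9 to 69.5 Mb (1.37), 69.6 to 69.9 Mb (1.14), which holds CCND1, the gene of cyclin D1, with FGF3, FGF4 and FGF19, and 64 to 64.4 Mb (1.08), which holds BAD. The stretch at 134.3 to 134.7 Mb of chromosome 9 (1.28) holds RXRA and COL5A1. The lower stretch, at 89.7 to 90 Mb of chromosome 8 (-1.31), holds NBN and RIPK2. In DTP and the combination the medians over these stretches were between -0.19 and 0.57.

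With the shifts kept, 111138 of 191202 regions were called (58.1%), 51038 higher (26.7%) and 60100 lower (31.4%). Once each library's median over each bin was removed, 102095 of 190888 regions were called (53.5%), 46936 higher (24.6%) and 55159 lower (28.9%). Both fits called 88567 regions in the same direction, 38840 higher and 49727 lower. A further 857 regions were called opposite ways, 21557 with shifts kept only and 12671 with medians removed only. In the 118 bins shifted down, lower calls went from 24220 to 16280 of 52999 regions, and in the 34 bins shifted up, higher calls went from 19230 to 9220 of 38769. The AZD5153 and DMSO libraries did not overlap, after removal, in 58.4% of all tested regions. A change of 2-fold or more was seen in 29092 regions called higher and 38627 called lower. Counting the near-identical libraries as 1 sample gave 109340 of 207279 calls with medians removed (50817 higher, 58523 lower) and 122303 of 207648 with shifts kept (57512 higher, 64791 lower). The median of all regions was -0.04 with shifts kept and 0.18 when only library size was scaled, and under that scaling 65851 regions were higher and 49708 lower. When the bin median came from regions outside promoters only, the split with medians removed was 78006 higher and 35592 lower. Levels of change below are therefore relative to the other regions of the same bin. A library's correlation of log2 levels with the libraries of the other group was 0.778 to 0.804, and within a group at least 0.972.

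Promoters and other classes of regions went different ways. Of 28242 regions within 1 kb of a start, 43.5% were higher and 21.8% lower, with a median log2 change of 0.22. Between 1 and 3 kb the order was opposite, with 21.1% higher and 47.9% lower. Of 15623 distal intergenic regions 18.2% were higher and 50.6% lower (median -0.42), of 7803 first-intron regions 18.1% and 54.8% (-0.55), of 13053 other intron regions 18.1% and 53.4% (-0.52), and of 4432 exon regions 20.6% and 47.0% (-0.32). The library medians of all promoter regions were 0.17, 0.12 and 0.11 in AZD5153, above the -0.03 to 0.03 of DMSO, and those of first introns were -0.50, -0.55 and -0.53. The 114037 tested regions without the authors' annotation, which had low levels, were split evenly with 22.4% higher and 21.1% lower. Of annotated regions, promoters made up 64.8% of those higher, 31.6% of those lower and 49.9% of those not called.

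**Figure D4:**
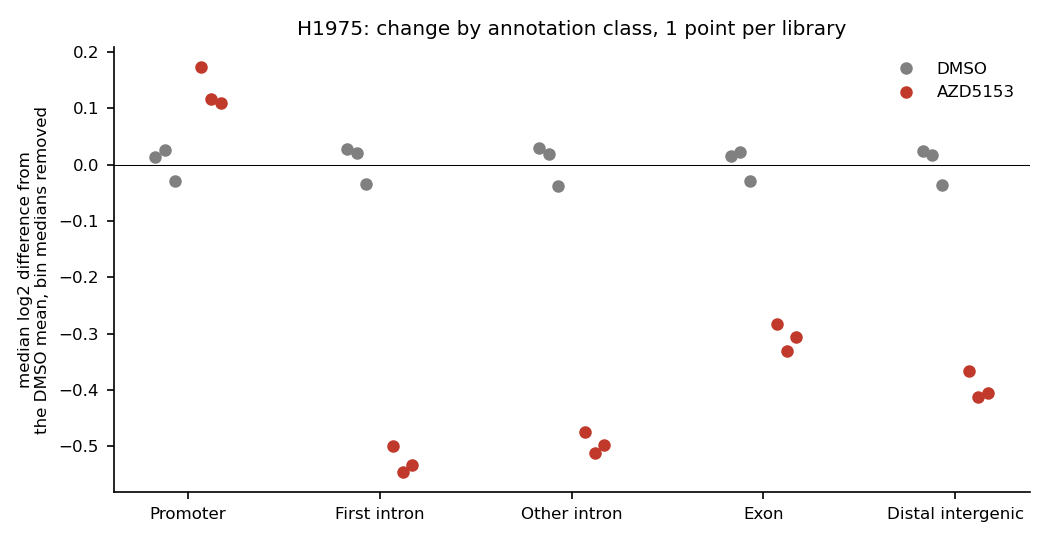
Median log2 difference from the DMSO mean by annotation class, with 10 Mb bin medians removed and 1 point per library. The 3 AZD5153 libraries lie at 0.11 to 0.17 for promoters and at -0.55 to -0.50 for first introns, outside the DMSO libraries in both.

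The promoter regions that rose most were near DOCK4, RP1L1, LINC02450, PFKP, SYNJ2 and CIDEB, with log2 changes of 5.96, 5.77, 5.20, 5.10, 4.98 and 4.85. They were taken as the largest of 10209 promoter regions that met the rule for rises, and the DMSO libraries together held 6 to 13 counts at each, so the size of these changes depends on the prior count of the fit. The authors' promoter class reaches 3 kb from the start of any transcript, and the region near DOCK4 lay 2524 bases from one. The region near DOCK4, which encodes an activator of the small GTPase Rac, had 12.77, 12.02 and 11.07 CPM under AZD5153 and 0.309, 0.404 and 0.135 CPM in DMSO (SE 0.29, adjusted p = 1.43e-46). DTP had 1.68 to 3.74 CPM there and the combination 2.24 to 2.59 CPM, so neither came near AZD5153 alone. The region near PFKP, the platelet type of the glycolytic enzyme phosphofructokinase, had 19.9, 19.2 and 16.7 CPM against 0.464, 0.673 and 0.674 CPM. SYNJ2 encodes an inositol phosphatase, and its region had 13.2 to 15.5 CPM against 0.464 to 0.673 CPM.

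The promoter regions that fell most were near ETV3, SPECC1L-ADORA2A, PON3, TBC1D14, YY1AP1 and PIK3CB, with log2 changes of -6.20, -6.11, -5.65, -5.51, -5.46 and -5.42. ETV3 encodes a repressor of the ETS family, and its region had 0.387, 0.174 and 0.456 CPM under AZD5153 and 22.9, 25.7 and 21.3 CPM in DMSO (SE 0.24, adjusted p = 5.91e-60). PIK3CB, a catalytic subunit of PI3 kinase, had 0.258, 0.523 and 0.228 CPM against 19.6, 19.2 and 13.9 CPM at its region. In each of the 6 the groups were far apart, and the lower group held 6 to 14 counts over its 3 libraries, so the size of these changes depends on the prior count of the fit. The region near SPECC1L-ADORA2A stayed at 22.4 to 31.2 CPM in DTP and the combination, while the region near YY1AP1 was at or below 0.56 CPM in both. These were not the main promoters of all 6 genes. The regions over the RefSeq starts of PIK3CB (0.61) and ETV3 (-0.37) were called higher and lower. Those of SPECC1L-ADORA2A (-0.05, adjusted p = 0.655), TBC1D14 (0.26, adjusted p = 0.093) and YY1AP1 (0.13, adjusted p = 0.255) were not called.

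Outside promoters, the largest rises were at PLEKHA2 (5.73), MIR30A (5.66), LIF (5.47), SARDH (5.46), LINC01214 (5.39) and TRERNA1 (5.33), as log2 changes. The intergenic region nearest to LIF, a cytokine of the interleukin-6 family, had 29.3, 26.0 and 27.0 CPM against 0.619, 0.404 and 0.539 CPM. The largest falls were at NCOR1 (-6.57), KDR (-6.13), SAR1B (-6.002), ENTPD1 (-5.97), WWC1 (-5.86) and RALGPS1 (-5.82). The exon region of NCOR1, a nuclear corepressor, had 0.129, 0.871 and 0.342 CPM against 28.6, 29.9 and 27.5 CPM. The intron region of WWC1, which encodes KIBRA of the Hippo pathway, had 0.258, 0.523 and 0.228 CPM against 16.5, 19.2 and 16.6 CPM, and it kept 12.7 to 14.2 CPM in DTP and 10.2 to 11.7 CPM in the combination. All 24 regions of these 4 sets kept their direction and their call under every alternative in which they were tested. They were picked as called, separated and largest in these same libraries, so this adds no support.

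Gene lists were read at 1 promoter region per gene, the nearest to the start. Of all 15417 genes with such a region, 43.1% were higher and 20.7% lower, 63.8% in all, and the median log2 change was 0.19. Of 531 list genes, 339 also had a tested region over their RefSeq start. It was the same region for 300 of them, and among the other 39 the call differed for 21. Against the background of all genes the epithelial and mesenchymal list stood low, with 5 of 19 genes higher, 11 lower and a median of -1.19.

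The epithelial genes that fell included cadherin, claudin and keratin genes. CDH1, the gene of E-cadherin, had 5.29, 4.88 and 4.79 CPM at its promoter under AZD5153 and 35.2, 36.9 and 34.2 CPM in DMSO, a log2 change of -2.61 (SE 0.13, adjusted p = 4.63e-45). The groups did not overlap, and DTP (29.1 to 32.5 CPM) and the combination (37.8 to 40.5 CPM) lay near DMSO. CLDN7, a claudin of tight junctions, had 4.39, 3.48 and 4.79 CPM against 27.5, 25.8 and 24.3 CPM (-3.10, SE 0.14), and the region over its RefSeq start fell by 1.80. GRHL2, a transcription factor of epithelial genes, had 1.81, 2.44 and 2.74 CPM against 35.9, 37.1 and 32.1 CPM (-3.06, SE 0.17). OVOL1 (-2.48), ESRP1 (-2.09), EPCAM (-1.55), OVOL2 (-1.48), CLDN4 (-1.19), KRT19 (-1.19) and KRT8 (-0.93) were lower too, while KRT18 (-0.04, adjusted p = 0.828) did not pass and ESRP2 rose by 0.22.

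The mesenchymal genes did not all go one way. VIM, the gene of vimentin, had 35.7, 36.6 and 33.6 CPM under AZD5153 and 10.8, 10.1 and 10.5 CPM in DMSO, a log2 change of 1.72 (SE 0.11). ZEB2, a repressor of CDH1, had the same change of 1.72 from a lower level, and SNAI2 (0.56) and SNAI1 (0.50) rose as well. ZEB1 (0.18) and FN1 (0.24) did not pass. CDH2, the gene of N-cadherin, had the lowest value of the list at -3.77, with 0.516, 0.697 and 0.228 CPM against 7.42, 9.15 and 6.61 CPM. Markers of other cells moved in the same direction as the epithelial ones, with CDH5 at -3.91, PECAM1 at -1.59, COL1A1 at -0.77 and COL3A1 at -0.51 (adjusted p = 0.0388, not called in 10 of 19 alternatives, with the sign turned in 1 of them), and their median was -1.18. PTPRC, CD3E, MYOD1 and ALB were among the markers with no tested promoter region. The summed level of the 4 tested markers was 20.1 to 21.7 CPM in the AZD5153 libraries and 50.2 to 61.7 CPM in the DMSO libraries, and that of the 5 epithelial markers was 53.8 to 56.9 CPM and 148 to 155 CPM. The part of these markers in the other results was not tested.

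**Figure D5:**
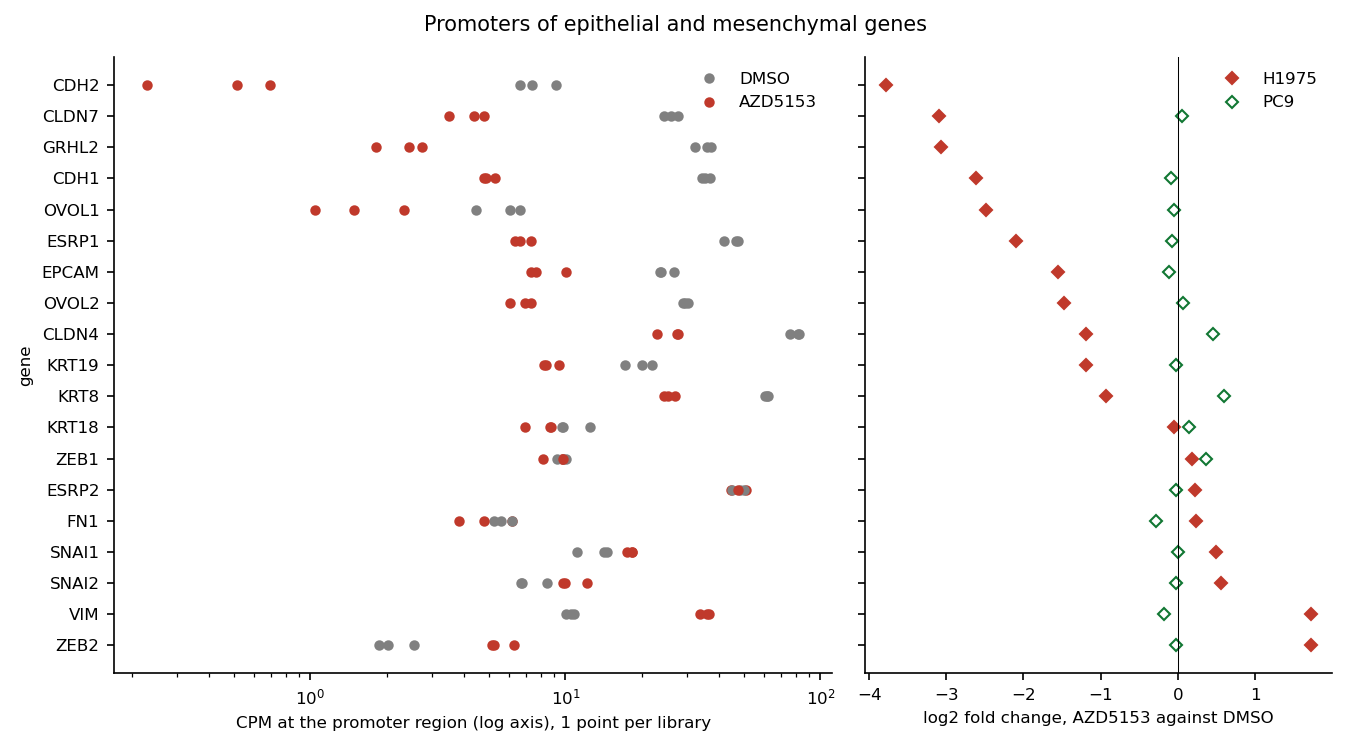
Left, levels (CPM, log axis) at the promoter regions of epithelial and mesenchymal genes in each AZD5153 and DMSO library of H1975. Right, log2 fold changes of the same genes in H1975 and, where a region was matched, in PC9. CDH1 lies at 4.79 to 5.29 CPM under AZD5153 and at 34.2 to 36.9 CPM in DMSO, and VIM at 33.6 to 36.6 CPM and 10.1 to 10.8 CPM.

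Of 20 lung lineage genes 8 were lower and 5 higher (40% and 25%, median -0.34), against 20.7% and 43.1% of all genes with a promoter region. HOPX, a marker of type I alveolar cells, had 1.03, 1.39 and 1.14 CPM against 14.1, 13.1 and 11.5 CPM (-3.57, SE 0.22). FOXA2, a factor of the endodermal lineage, had 8.39, 6.79 and 5.93 CPM against 27.5, 32.1 and 25.5 CPM (-2.18, SE 0.12), and it was lower still in DTP (3.33 to 4.03 CPM) and the combination (2.14 to 2.87 CPM). NAPSA, the gene of the surfactant protease napsin A, had a log2 change of -1.34, and NKX2-1, the lung lineage factor, one of -0.46. GATA6 (0.88) and FOXA1 (0.45) were higher. ELF3 was called higher at 1.66 from levels under 2 CPM in all 6 libraries.

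Targets and partners of YAP and TEAD, the effectors of the Hippo pathway, were higher in 16 of 21 genes and lower in 2, with a median log2 change of 0.53. These shares were 76.2% and 9.5%, against 43.1% and 20.7% of all genes with a promoter region. CCN2, a secreted matrix protein gene, had 10.7, 10.4 and 11.6 CPM against 4.79, 6.19 and 4.85 CPM (1.25, SE 0.16, adjusted p = 5.45e-12). No AZD5153 library overlapped DMSO there, and the combination was higher, at 18.1 to 21.3 CPM. ARHGEF17 (1.72), FJX1 (1.22) and AJUBA (1.07) also rose, while WWTR1, the gene of TAZ, fell by 0.87. PTPN14 fell by 0.46 at the region used and rose by 0.39 at the region over its RefSeq start.

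In the EGFR and ERK feedback list 13 of 25 genes were higher and 5 lower (52% and 20%, median 0.37), against 43.1% and 20.7% of all genes with a promoter region. SPRED1, an inhibitor of RAS signalling, had 6.45, 7.66 and 6.84 CPM against 2.47, 1.48 and 2.43 CPM (1.88, SE 0.22). EREG, the gene of the EGFR ligand epiregulin, rose by 1.16. EGFR itself had 21.7, 19.3 and 18.9 CPM against 13.9, 14.9 and 17.1 CPM, a log2 change of 0.73 (SE 0.11, adjusted p = 1.04e-08) with the bin removed and 0.38 with shifts kept. MET, another receptor kinase gene, was read by the rule at a region over a start inside the gene, which had 5.42, 5.23 and 6.16 CPM against 7.58, 5.65 and 7.28 CPM. Its log2 change was 0.37 with the bin removed (adjusted p = 0.0691) and -0.27 with shifts kept, and it was called in 5 of 19 alternatives. The region over the RefSeq start of MET was higher by 0.70 (adjusted p = 1.09e-11). SPRY1, a feedback inhibitor, fell by 0.72.

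Of 13 genes of BET proteins and P-TEFb 6 were higher and 1 lower (46.2% and 7.7%, median 0.13), against 43.1% and 20.7% of all genes with a promoter region. HEXIM1, the inhibitor of P-TEFb whose transcript is a usual readout of BET inhibition, had 33.7, 30.7 and 30.9 CPM against 30.8, 31.3 and 24.4 CPM (0.13, adjusted p = 0.265), so its promoter was not shown to differ. CCNT2, a cyclin of P-TEFb, rose by 1.81, ELL2 by 0.99 and LARP7 by 0.43, and BRD3 fell by 0.43. In the MYC network 4 of 12 genes were higher and 1 lower (median 0.16), with MLX at 0.55 and MLXIP at 0.38. That median was -0.15 over the 9 genes with a region over the RefSeq start. Of 55 replication-dependent histone genes, which lie in clusters and partly in near-identical copies, 14 were higher and 5 lower (median 0.06), but 33 were higher and 0 lower with shifts kept (median 0.36). Over 38 of them read at the RefSeq start the median was -0.02.

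Interferon genes stood low, with 9 of 23 lower and 3 higher (39.1% and 13.0%, median -0.20), against 20.7% and 43.1% of all genes with a promoter region. OAS1 had 1.68, 1.74 and 1.71 CPM against 7.27, 9.01 and 8.49 CPM (-2.11, SE 0.23), and OASL (-1.70), MX2 (-1.68) and IFI44 (-1.67) followed. Among 20 NF-kB and inflammatory genes 10 were higher and 4 lower (50% and 20%, median 0.31), shares near those of all genes. The chemokine gene CCL2 had 4.00, 5.92 and 4.11 CPM against 1.39, 0.135 and 0.539 CPM (2.90, SE 0.34), and CXCL3 (2.201) and the LIF promoter (2.26) rose with it. CXCL1 (-1.37) and CXCL8 (-1.26), of the same chemokine family as CXCL3, fell.

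Of 15 BCL2 family genes 7 were higher and 1 lower (46.7% and 6.7%, median 0.33). Of all genes with a promoter region 43.1% were higher and 20.7% lower. The share higher lay near that for this list, the autophagy and lysosome genes (48%) and the cell cycle genes (40.7%). HRK, a BH3-only activator of apoptosis, had 9.68, 11.3 and 10.8 CPM against 3.09, 3.50 and 2.43 CPM (1.97, SE 0.18), and BAD (1.13) and BAK1 (0.77) rose, while BBC3, the gene of PUMA, fell by 0.61. Of 25 autophagy and lysosome genes 12 were higher and 2 lower (median 0.21), the lower ones being ATG9B (-1.28) and CTSB (-1.03). Of 27 cell cycle genes 11 were higher and 4 lower (median 0.14), with CDKN2C at 0.91, E2F7 at 0.86 and CDT1, a replication licensing factor, at -0.98. The region over the RefSeq start of CDT1 was not called (0.08). Of 14 AP-1 factor genes 2 were higher and 3 lower (median 0.03), and BATF had the largest change (-2.46). Of 239 zinc finger genes of chromosome 19, 60 were higher and 72 lower (median -0.04, and 0.02 over 172 of them read at the RefSeq start).

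RefSeq promoter sequences (GRCh38.p14) were matched to 7871 genes whose promoter region overlapped the window from 250 bases before to 50 bases after the start by at least 150 bases. The 250 bases before the start are shown for a pair of genes that fell, CLDN4 and CXCL8, and for CCN2, which rose, because they hold matches to the AP-1 and TEAD motifs. They were chosen after their values were seen. CLDN4 had 27.6, 22.8 and 27.3 CPM against 82.7, 81.7 and 75.8 CPM, and CXCL8 had 5.68, 3.66 and 4.79 CPM against 16.4, 12.6 and 12.3 CPM. Capitals mark matches on either strand to AP-1 (TGANTCA), TEAD (GGAATG), the CCAAT box (CCAAT) and the TATA box (TATAAA).
CLDN4, chr7:73830746-73830995, plus strand: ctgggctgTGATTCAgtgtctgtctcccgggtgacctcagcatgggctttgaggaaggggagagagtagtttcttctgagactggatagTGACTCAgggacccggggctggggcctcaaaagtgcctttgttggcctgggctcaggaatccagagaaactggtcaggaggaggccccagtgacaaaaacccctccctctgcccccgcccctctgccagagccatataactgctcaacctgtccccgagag
CXCL8, chr4:73740319-73740568, plus strand: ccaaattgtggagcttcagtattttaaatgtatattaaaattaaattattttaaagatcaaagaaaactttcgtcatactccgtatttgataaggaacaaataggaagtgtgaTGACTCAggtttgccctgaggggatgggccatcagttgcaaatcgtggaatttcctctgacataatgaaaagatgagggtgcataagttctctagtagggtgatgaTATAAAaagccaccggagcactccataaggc
CCN2, chr6:131951373-131951622, minus strand: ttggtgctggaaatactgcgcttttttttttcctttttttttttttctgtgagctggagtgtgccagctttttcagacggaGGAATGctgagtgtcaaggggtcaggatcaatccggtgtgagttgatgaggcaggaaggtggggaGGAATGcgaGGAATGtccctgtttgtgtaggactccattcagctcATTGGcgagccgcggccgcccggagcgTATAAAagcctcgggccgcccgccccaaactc

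Over all windows the letters TGANTCA stood in 3.65% of the 3921 promoters that were higher, in 11.8% of the 1051 that were lower and in 21.9% of the 256 lower by 2-fold or more, against 5.04% of the 2899 not called, 5.25% of all 7871 matched and 7.76% of all 27305 promoters of the table. The CLDN4 window holds a pair of them and the CXCL8 window 1. The ETS letters CCGGAAG stood in 20.3% of the higher, 13.0% of the lower and 4.69% of those lower by 2-fold or more, against 20.9% of those not called and 19.6% of all matched (10.7% of all in the table). GGAATG, which the CCN2 window holds 3 times, stood in 10.1% of the higher and 14.1% of the lower, against 9.93% of those not called, 10.6% of all matched and 14.1% of all in the table. GGGCGG was in 76.2% of the higher and 43.8% of those lower by 2-fold or more (73.6% of all matched), and TATAAA in 4.36% of the higher and 6.95% of the lower (5.04% of all matched). Base composition moved with these shares. The median GC content was 67.0% in the higher promoters, 63.0% in the lower and 56.7% in those lower by 2-fold or more, and its part in the motif shares was not tested.

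The same drug at the same dose in PC9 gave another picture. Of 113986 regions matched between the tables, the change differed between the lines in 44794 (39.3%) by edgeR's test of the interaction with bin medians removed within each line, 20350 with the higher change in H1975 and 24444 with the lower. H1975 had 67417 of these regions called and PC9 26461. In 11750 regions both lines were called in the same direction, 4336 higher and 7414 lower, which is 17.4% of the H1975 calls and 44.4% of the PC9 calls, and in 5725 they were called opposite ways. The 2 lines differ in depth, with fewer counts per library in PC9. With shifts kept, edgeR's common variation between replicates beyond counting noise was 0.988% in PC9 and 3.20% in H1975. Whether PC9 libraries were near-identical was not checked, and near-identical libraries were not counted as 1 sample in this test. At matched promoters the median change was 0.18 in H1975 and -0.003 in PC9, and at distal intergenic regions -0.33 and 0.07.

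Of the epithelial genes that fell in H1975, CDH1 had a log2 change of -0.09 in PC9 (difference -2.41, adjusted p = 3.05e-30), CLDN7 0.05 (difference -3.02) and EPCAM -0.12 (difference -1.39). HOPX (-0.37 in PC9, difference -3.13), OAS1 (0.25, difference -2.44) and CCN2 (-0.09, difference 1.28) differed likewise. These genes were named for their H1975 change, and the fit uses the same H1975 libraries, so such differences were favoured. In that fit the bin medians come from matched regions only, so a gene's H1975 value can differ from the one given above. This holds most for MYC, whose difference was 0.92 (adjusted p = 0.000185) although its value above is lower than that of PC9. Some regions moved in both lines. Regions near SYT14 (log2 change 2.76 in H1975 and 2.88 in PC9), DHRS2 (2.67 and 2.24), MARCHF7 (2.26 and 2.06) and PVT1 (3.38 and 2.15) were higher in both, and regions near EIF4E2 (-5.24 and -3.53), MEF2C-AS1 (-4.60 and -3.26), C8orf74 (-3.80 and -3.12) and ZNF551 (-3.09 and -2.96) were lower in both. A region near C11orf80 was also lower in both (-5.19 and -3.33), and there the lines differed (adjusted p = 0.0211). For the 8 regions before it the difference did not pass the test (adjusted p from 0.138 to 0.9302), which does not show that they moved alike. DHRS2 encodes a reductase, and its region had 10.2 to 10.8 CPM under AZD5153 and 1.21 to 2.16 CPM in DMSO in H1975.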

How the data were processed

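ATAC-seq libraries of H1975 and PC9 were analysed from the tables the authors deposited, which hold the raw counts of each library over regions of 1 fixed width, a subset of 76952 H1975 regions with gene annotation and identical counts, and peak lists whose q-value column the authors gave as −log10. The submitters' processing notes name hg38, BWA 0.7.17, SAMtools 1.9, deepTools 3.4, MACS2 2.2.6, featureCounts 2.0.0 and ChIPseeker 1.29.1, without roles. Counts per library are given in the report, and more of them give smaller errors.

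Counts were fitted with edgeR 4.0.16 (R 4.3.3, filterByExpr, TMM, quasi-likelihood F test, all 12 H1975 libraries in 1 fit, edgeR's default prior count). P-values were adjusted by Benjamini-Hochberg over all regions tested and called under 0.05. A prior count of 2 entered only the log2 CPM levels, from which each library's medians were taken. Each library's median over each 10 Mb bin with at least 50 tested regions entered as an offset, which left out 314 regions. In the most shifted bins these medians lay nearer to zero than the median fitted change, so part of the shift stayed in. H1975 contrasts share their DMSO libraries, so their values are only set side by side. Promoters are regions within 3 kb of a start in the authors' annotation. PC9 regions were matched at a reciprocal overlap of at least 50%. DESeq2 1.42.0, other scalings, filters and offsets, and leaving out each library were alternatives. Scripts were tested on simulated data.

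The members, gene lists and rules were chosen with earlier results of these data known. Named regions are the 6 largest rises and falls among promoters and among other classes, above the median level and with no overlap between groups, up to 4 called genes per list, and HEXIM1, MYC, EGFR and MET; 1 further promoter of the rule is not reported here. Other list members named were chosen after their values were seen. Where labels give no separate cultures, p-values measure only the spread between these libraries.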

Additional observations from a re-analysis of the deposited data

Results flagged for a closer look

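The change under AZD5153 differed between H1975 and PC9 in 44794 matched regions, by edgeR's interaction test. Values below are log2 differences, H1975 minus PC9, of regions named in the report for which this test passed. Most were named for their change in these same H1975 libraries, which favours such differences. Among the regions with the largest changes, the difference was positive at DOCK4 (5.02), RP1L1 (5.94), SYNJ2 (3.07), PLEKHA2 (5.46), MIR30A (4.81) and LIF (4.37). It was negative at ETV3 (-4.75), SPECC1L-ADORA2A (-5.35), PON3 (-3.63), TBC1D14 (-4.80), PIK3CB (-5.13), NCOR1 (-2.98), KDR (-4.34), SAR1B (-5.02), ENTPD1 (-4.75), WWC1 (-5.80) and RALGPS1 (-4.16).

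Among promoters of the gene lists it was positive at MYC (0.92), EGFR (0.44), ATF3 (0.34), HRK (2.10), BAD (0.94), BAK1 (0.51), CCNT2 (1.19), ELL2 (1.20), LARP7 (0.80), SPRED1 (1.79), EREG (1.38), CXCL3 (1.48), CCN2 (1.28), FJX1 (1.22), LAMP1 (1.39), CDKN2C (1.39), E2F7 (1.01), MCM4 (0.78), ZNF146 (1.54), H3C8 (1.55) and H2BC15 (1.17). It was negative at BATF (-2.38), MAFG (-0.96), BBC3 (-1.79), SPRY1 (-0.70), ATG9B (-1.57), CTSB (-1.20), CDT1 (-0.78), CLDN7 (-3.02), CDH1 (-2.41), EPCAM (-1.39), KRT19 (-1.10), KRT8 (-1.46), OAS1 (-2.44), OASL (-1.86), MX2 (-1.21), IFI44 (-3.66), HOPX (-3.13), NAPSA (-2.60), CDH5 (-2.13), PECAM1 (-1.30) and COL1A1 (-0.84). The value of MYC rests on a bin median from matched regions only. Those of H3C8 and CDT1 are not from the regions over their RefSeq starts, which were not called in H1975 (-0.06 and 0.08). The causes of these differences were not tested.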

How the results depend on the processing

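With bin medians removed, 28406 regions were called at a mean of at least 50 counts, 67719 with a log2 change of at least 1 as well and 54475 among annotated regions only. The first and last of these tested fewer regions (39546 and 76285). With shifts kept, the same 2 gave 31336 and 57404. DESeq2 called 82342 regions with medians removed and 91241 with shifts kept. Without any filter on low counts 112994 were called with medians removed, 38612 higher and 74382 lower. Leaving out 1 library at a time gave 95272 to 100105 calls with medians removed and 105260 to 110411 with shifts kept, 263 to 280 bins, an SD of bin medians of 0.4317 to 0.4498, and 41580 to 44188 regions that differed from PC9.

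Bins of 5 and 20 Mb gave 518 and 149 bins called and SDs of 0.447 and 0.394. The SD was 0.343 for promoters only, 0.491 outside promoters and 0.372 for regions under the filter. The promoter share of higher regions was 64.2% with shifts kept, 77.1% within 10 kb and 73.8% at a mean of 50 counts. That of lower regions was 54.5% and 35.1% under the last 2 and 30.6% to 32.3% with 1 library left out. The median over all promoter genes was 0.16 with shifts kept and 0.26 over regions at RefSeq starts, a choice made after seeing the data. Read so, the medians of replication-dependent histones (-0.0205) and the MYC network (-0.149) turned sign.

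Of 1735 values of 89 named regions under alternatives, 1669 kept direction and call, 53 lost the call, 8 gained one and 5 reversed. These were MYC (-0.39), ATF3 (-0.0143) and MCM4 (-0.00895) under a running median over the nearest regions, and MLXIPL (0.24) and COL3A1 (0.24) when bin medians came from outside promoters. The cause was not tested. Most of the 89 regions were named because they were called, so a kept call was favoured by the choice.

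The replicate numbers did not pair the libraries, since same-numbered deviations correlated at -0.011, -0.025 and -0.017 over regions. With the replicate block 100773 regions were called with medians removed, 109809 with shifts kept, 274 bins, and 44304 differed from PC9. Treating near-identical libraries as 1 sample was chosen after seeing the data.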
